A study of Mus musculus with 24 samples.

Results

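The sarcomeric myosin heavy chain genes of striated muscle were followed here through 8 lists of H3K27ac peaks from mouse quadriceps myofibers. The 8 genes were Myh3, Myh2, Myh1, Myh4, Myh8 and Myh13, which stand in this order on chromosome 11, Myh7 on chromosome 14 and Myh7b on chromosome 2. A peak was assigned to them when it overlapped by at least 1 bp the body of a gene or the 10 kb on either side of any of its RefSeq transcription starts, and peaks between the chromosome 11 genes were included. This gave 182 of the 469078 peaks in the 8 lists, and 8 of 21774 protein-coding genes.

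Myosin heavy chains are the motor proteins of the thick filament, and the isoform that a fiber makes sets how fast it contracts. Adult fast fibers carry MyHC-2A (Myh2), MyHC-2X (Myh1) or MyHC-2B (Myh4), and slow fibers carry MyHC-beta (Myh7). Myh3 and Myh8 encode the embryonic and perinatal chains, Myh13 the chain of extraocular and laryngeal muscles, and Myh7b an ancient slow-type chain. H3K27ac is a histone mark of active promoters and enhancers, and in fast muscle an enhancer domain in the interval between Myh3 and Myh2 is known to serve the adult fast genes.

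All mice were C57BL/6J, and the study's methods give their age at the start of treatment as 10 weeks. Males and females received vehicle or a weekly injection of 1 mg/kg prednisone, a synthetic glucocorticoid. Left quadriceps were taken 4, 6 or 8 days after injection 5, and myofibers were freed with collagenase and filtered. Each of the 8 groups (vehicle, day 4, day 6 and day 8 in each sex) had 2 H3K27ac libraries, 1 input library and 1 deposited peak list. Since each list stands for a whole group, there was no replicate error, and no difference between lists was tested. In bulk myofibers, fewer fibers of a type and less of the mark per fiber cannot be told apart.

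The lists differed in depth and reach. H3K27ac depth ran from 7.52 megatags (M) in the male day 4 list to 50.5 M in the male day 6 list, and the number of peaks from 17482 (male day 4) to 123249 (female day 6). Peaks covered between 0.466% (male day 4) and 5.84% (female day 6) of the genome. Of the 4 myofiber markers Acta1, Ckm, Ttn and Mb, at least 3 had a peak in their window in every list, and the number with a start in a peak was 3, 0, 2 and 2 in the male lists and 0, 4, 4 and 4 in the female lists. The leukocyte markers Ptprc and Adgre1 had a window peak in 4 lists (both in the female vehicle list, and 1 of them in the male day 6, female day 4 and female day 6 lists) and a start in a peak in 0 of the 8. Among 14 markers of other cells, the number with a start in a peak was 4, 2, 2 and 1 in the male vehicle, day 4, day 6 and day 8 lists, and 1, 6, 9 and 9 in the female lists in the same order. The endothelial markers Pecam1 and Cdh5 had a window peak in all 8 lists, and both had a start in a peak in the male vehicle list and in the 3 female prednisone lists. The part of these differences in the values below was not tested.

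The mark in the cluster was concentrated in 2 places, the interval between Myh3 and Myh2 and the 5′ side of Myh4. Of the 182 peaks, 63 touched the first of these, a stretch of 68.7 kb (chr11:67102292-67171026, mm10) that holds the long noncoding RNA genes 2310065F04Rik (linc-Myh, minus strand, chr11:67112461-67120080) and Gm31285. This interval had a peak in all 8 lists. The far shorter 2.58-kb interval between Myh2 and Myh1 had 0 peaks in any list, where peaks covered 0.466% to 5.84% of the genome.

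**Figure D1:**
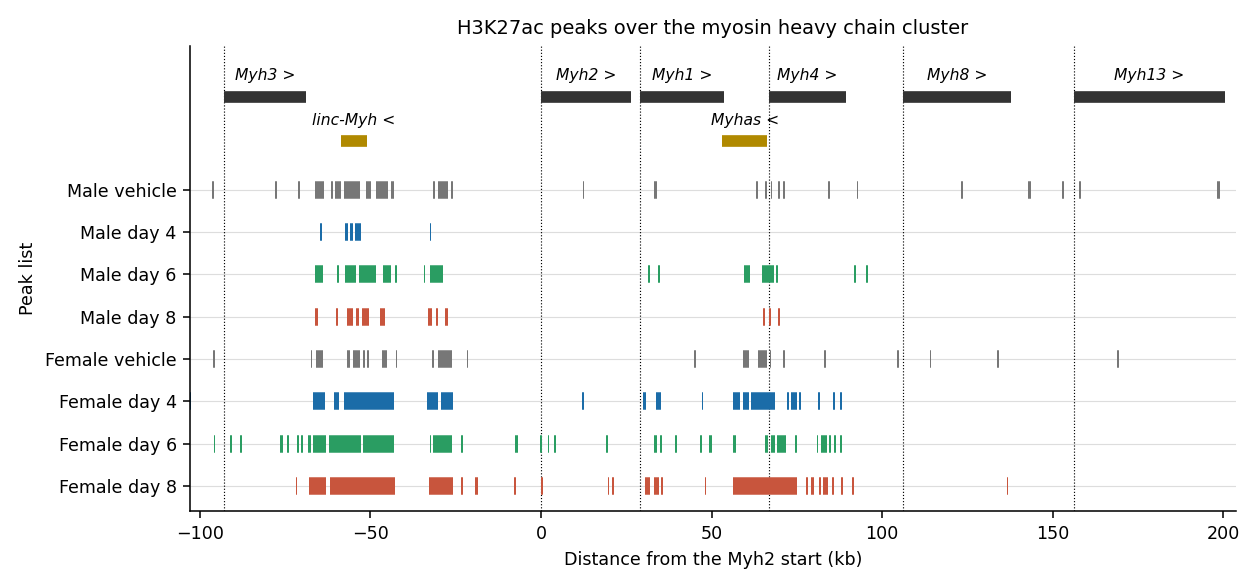
Each bar is an H3K27ac peak drawn to scale against its distance from the Myh2 start in kb, with 1 row for each of the 8 peak lists, gray for vehicle and blue, green and red for days 4, 6 and 8. Gene bodies stand above with their direction of transcription, and dotted lines mark the starts of the 6 genes; peaks recur in every row between Myh3 and Myh2, in every row but male day 4 near Myh4, and are rare over Myh8 and Myh13.

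Within the Myh3–Myh2 interval, 3 merged regions held peaks of all 8 lists as deposited. This count fell to 1 with peaks of at least 4-fold over input. It was 0 with every list reduced to the length of the shortest by findPeaks score. That score did not follow tag count, since the 19013-bp female day 8 peak over linc-Myh, with 598 normalized tags, had the lowest score of its list (16). The part of list length in this 0 was not tested. The 3 regions lay at chr11:67102831-67108181 (5.35 kb), chr11:67108845-67128147 (19.3 kb) and chr11:67137567-67145234 (7.67 kb). The 8 genes had 71 merged regions in all, of which 46 came from 1 list only. Over the whole genome, 1.70% of merged regions held peaks of all 8 lists. Those genome-wide regions had a median length of 4615 bp, and 265 of the 4250 were at least as long as the 19.3-kb region at linc-Myh.

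Bases covered by a peak in every list were found only in the 19.3-kb region, in 3 stretches that all lay inside the linc-Myh gene body. The 2 longer stretches are given here because they are the sequence at these genes that all 8 lists had in common. Stretch A spans chr11:67114279-67114491 and stretch C chr11:67115818-67115994, both read on the plus strand. A further stretch of 28 bp began at chromosome 11 position 67115088. Capitals mark matches on either strand to the E-box (CANNTG, bound by MyoD-family factors), the MCAT element (CATTCC, bound by TEAD factors) and the TATA letters (TATAAA).
linc-Myh stretch A: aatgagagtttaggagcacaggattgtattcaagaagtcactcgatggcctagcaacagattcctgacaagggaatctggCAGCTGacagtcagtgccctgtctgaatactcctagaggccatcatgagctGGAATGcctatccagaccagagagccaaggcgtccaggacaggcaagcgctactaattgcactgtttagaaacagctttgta
linc-Myh stretch C: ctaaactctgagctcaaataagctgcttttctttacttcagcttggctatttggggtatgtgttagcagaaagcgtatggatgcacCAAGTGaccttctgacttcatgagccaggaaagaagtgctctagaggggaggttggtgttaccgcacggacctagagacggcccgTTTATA

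Stretch A held 1 E-box and 1 MCAT match. Of the 2890 stretches of the genome that were covered in all lists and at least as long, 48.8% held an E-box and 8.72% an MCAT match in a central window of 213 bp. Stretch C held 1 E-box, present in 43.6% of 2992 equal windows, and the TATA letters, present in 3.31%. Neither held a match to MEF2, MEF3 (TCAGGTT), the CArG box or the spaced glucocorticoid receptor letters (ACANNNTGT) that were also searched.

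The share of the Myh3–Myh2 interval that lay in peaks differed between lists. Among males the vehicle list had 28.4%, and days 4, 6 and 8 had 6.18%, 26.1% and 14.3%. Among females the vehicle list had 20.9%, and the same days 39.3%, 44.5% and 48.8%. The 3 female prednisone lists were thus above all 5 other lists, and the male day 4 list, which was the shallowest, was the lowest. Relative to the cover of the whole genome in the same list, the order of the lists was different. The male vehicle, day 4, day 6 and day 8 lists had 11.7-fold, 13.3-fold, 26.6-fold and 22.9-fold the genome-wide cover. The female lists in the same order had 21.3-fold, 15.1-fold, 7.63-fold and 12.1-fold. On this scale each male prednisone list was above the male vehicle list, and each female prednisone list was below the female vehicle list.

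Peaks over linc-Myh were longer in the female prednisone lists than in the female vehicle list. Median peak length over the whole list was 500 bp with vehicle and 625, 649 and 681 bp at days 4, 6 and 8. H3K27ac depth was 27.5 M with vehicle and 49, 30.6 and 39.7 M on these days. The part of depth and of list-wide peak length in the values at linc-Myh was not tested. In the vehicle list of females the linc-Myh body was covered to 48.8% by separate peaks of at most 2047 bp. At day 4 a peak of 14722 bp (chr11:67113315-67128037, 1478 tags) covered 88.8% of it, and only 0.0918% of the 67503 peaks of that list held more normalized tags. At day 6 separate peaks of 9328 and 9028 bp also covered 88.8%, leaving out other bases, and at day 8 a peak of 19013 bp (chr11:67109134-67128147, 2376 tags) covered all of it. The male lists covered 65.4% of the linc-Myh body with vehicle and 42.6%, 71.2% and 52% on days 4, 6 and 8. The linc-Myh start itself lay in a peak in 7 lists, all but male day 4. Over all 12637 long noncoding RNA genes, the percent with a start in a peak ran from 4.71 to 26.6 between lists.

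**Figure D2:**
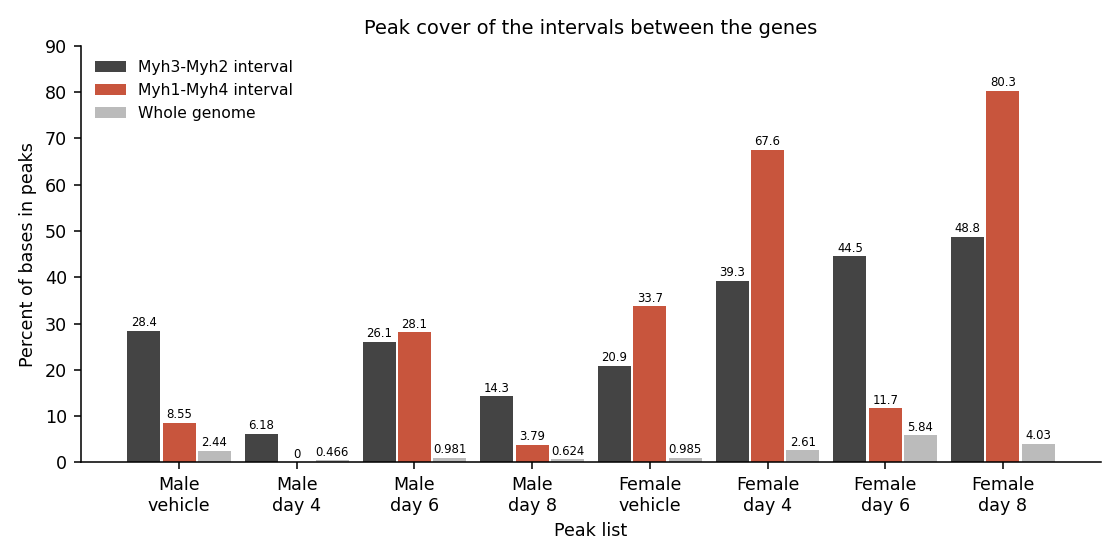
Bars give the percent of bases lying in peaks for the Myh3–Myh2 interval (dark), the Myh1–Myh4 interval (red) and the whole genome (light gray) in each peak list, with the axis starting at 0; there are no error bars because each group has 1 list. The Myh1–Myh4 interval ran from 0% in the male day 4 list to 80.3% in the female day 8 list, and fell to 11.7% in the female day 6 list.

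Myh4, the fast MyHC-2B gene, had the most peaks of the 8 genes, 43 over all lists. Its start and the start of Myhas, an antisense long noncoding RNA gene on the minus strand (chr11:67224196-67237281), lie back to back 531 bp apart. Peaks around both formed a merged region of 18.9 kb (chr11:67227186-67246098) that was found in 7 lists, all but male day 4. The percent of the Myh4 window (body and 10 kb around the start) in peaks was 10.5 in vehicle-treated males and 0, 17.9 and 5.01 in weekly prednisone–treated males on days 4, 6 and 8. Vehicle-treated females had 19.1, and prednisone-treated females 45.8, 29.1 and 68.2 on these days. The 3 female prednisone lists again held the highest values.

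Set among all protein-coding genes of the same list, Myh4 was near the top in 4 lists. Only 1.04% of genes had more of their window covered in the female vehicle list, 1.43% in the female day 4 list, 1.18% in the female day 8 list and 2.01% in the male day 6 list. The male day 8 value was 14.4%, and the male vehicle and female day 6 values were 22.0% and 22.3%. The last 2 lists held the most peaks of their sex. The median GC content of all peaks was 42.9%, 48.2% and 50.2% in the female vehicle, day 4 and day 8 lists and 44.5% in the male day 6 list. It was 50.5%, 50.1% and 51.3% in the male day 8, male vehicle and female day 6 lists, and 53% in the male day 4 list. The part of GC content in these ranks was not tested.

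The Myh4 window takes in the 10 kb next to the gene of the 13.2-kb interval between Myh1 and Myh4, so the values of the interval and the window are in part the same bases. The cover of the interval was 8.55% in vehicle-treated males, followed by 0%, 28.1% and 3.79% on days 4, 6 and 8. The female values were 33.7% with vehicle, then 67.6%, 11.7% and 80.3%. In the female day 6 list, which covered the most of the genome, this interval had only 2.00-fold the genome-wide cover, against 25.9-fold at day 4 and 19.9-fold at day 8. The female vehicle list had 34.2-fold, more than each female prednisone list. The male lists had 3.5-fold with vehicle and 0, 28.7-fold and 6.06-fold on days 4, 6 and 8. Cover of the Myh4 body did not drop at female day 6. The body was covered to 28.5%, 37.1% and 54.2% at female days 4, 6 and 8, after 7.89% with vehicle. Relative to the genome-wide cover, the body had 10.9-fold, 6.36-fold and 13.5-fold on these days, after 8.01-fold with vehicle. The Myhas start lay in a peak in 5 lists (male vehicle, male day 6 and the 3 female prednisone lists).

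The Myh4 start was inside a peak in 3 lists. These peaks were chr11:67235936-67239434 in the male day 6 list (260 tags), chr11:67232674-67239703 in the female day 4 list (724 tags) and chr11:67227186-67245922 in the female day 8 list (1350 tags). In 4 further lists the nearest peak was 139 bp (male day 8), 199 bp (female vehicle), 331 bp (female day 6) and 449 bp (male vehicle) away. The male day 4 list had its nearest peak 98882 bp upstream.

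**Figure D3:**
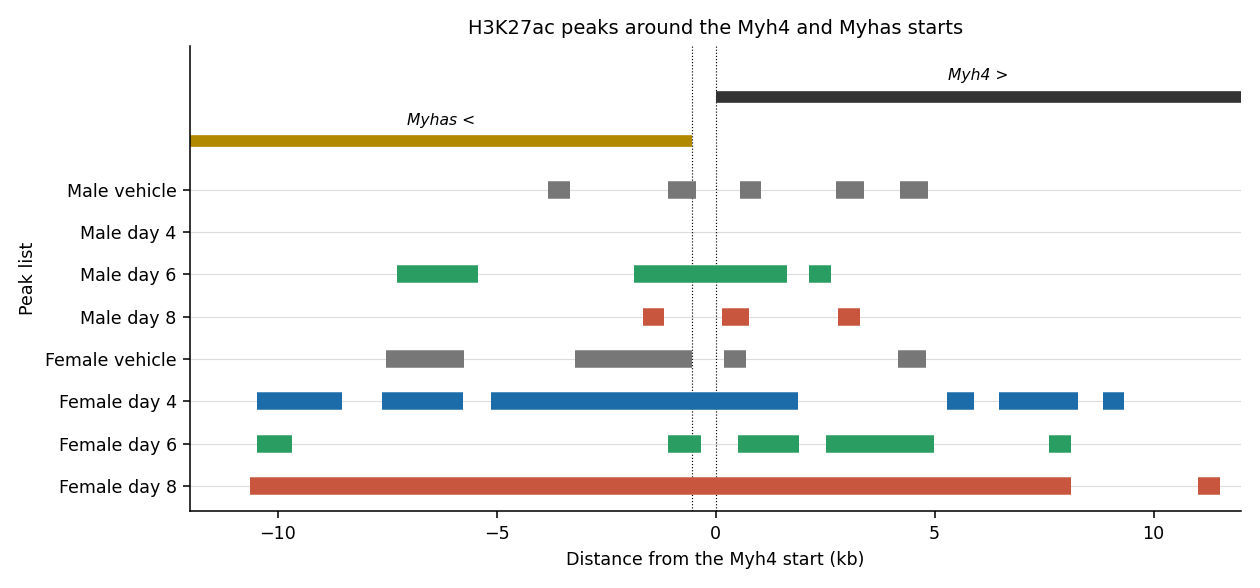
Peaks of the 8 lists are drawn against the distance from the Myh4 start in kb, with the Myhas and Myh4 bodies above and dotted lines at their starts, which are 531 bp apart. The bars of the male day 6, female day 4 and female day 8 lists cross both starts, and the male day 4 row is empty.

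The promoters of the adult fast genes are shown because peaks reached 2 of them and because they share sequence. Each runs from 250 bases before to 50 bases after the RefSeq start (GRCm38, plus strand), with capitals for E-box, MEF2, CArG and TATA matches. The Myh4 promoter is chr11:67237562-67237861, that of Myh2 chr11:67170777-67171076 and that of Myh1 chr11:67199852-67200151.
Myh4 promoter: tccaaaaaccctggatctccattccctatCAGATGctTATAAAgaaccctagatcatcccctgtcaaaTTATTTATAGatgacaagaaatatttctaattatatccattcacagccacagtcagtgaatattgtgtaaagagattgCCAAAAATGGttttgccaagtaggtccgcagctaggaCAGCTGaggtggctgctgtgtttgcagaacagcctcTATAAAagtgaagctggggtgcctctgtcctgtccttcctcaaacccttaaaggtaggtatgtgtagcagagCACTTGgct
Myh2 promoter: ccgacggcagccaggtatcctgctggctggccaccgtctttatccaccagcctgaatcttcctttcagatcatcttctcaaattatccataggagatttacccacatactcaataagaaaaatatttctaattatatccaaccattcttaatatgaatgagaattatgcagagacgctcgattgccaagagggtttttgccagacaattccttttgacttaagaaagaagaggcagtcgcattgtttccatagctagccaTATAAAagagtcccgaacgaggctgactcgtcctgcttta
Myh1 promoter: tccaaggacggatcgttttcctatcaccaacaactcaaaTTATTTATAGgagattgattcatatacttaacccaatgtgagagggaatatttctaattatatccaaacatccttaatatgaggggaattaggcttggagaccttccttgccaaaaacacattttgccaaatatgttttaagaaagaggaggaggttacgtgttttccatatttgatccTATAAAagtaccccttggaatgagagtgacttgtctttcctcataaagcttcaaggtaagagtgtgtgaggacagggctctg

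The Myh4 promoter held a MEF2 match at positions -182 to -173 from the start, a CArG box (the serum response factor letters) at -104 to -95 and 3 E-boxes. Among 32851 RefSeq promoters, 3.19% held a MEF2 match, 1.63% a CArG box, 72.3% an E-box and 13.6% the TATA letters. The Myh1 promoter held the same MEF2 letters at -211 to -202, and so did that of the perinatal gene Myh8 at -99 to -90. A 14-base run, ttctaattatatcc, was found in the Myh2, Myh1, Myh4 and Myh8 promoters and in 0 others, 4 of 32851 in all. All 300 bases of the Myh4 promoter lay in peaks in the 3 lists named above, and the Myh2 promoter was covered in full at female day 6 and over 29 bp at female day 8. Neither the Myh1 nor the Myh8 promoter overlapped a peak in any list.

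Myh2 and Myh1, the other adult fast genes, had far less of the mark than Myh4. The Myh2 window was covered to 1.37% in the male vehicle list and 0% in the 3 male prednisone lists. In females its cover was 0% with vehicle and 1.37%, 8.08% and 6.32% on days 4, 6 and 8. Its start lay in a peak only at female day 6 (chr11:67170726-67171447, 34 tags), and at female day 8 a peak began 21 bp past it. Thus peaks at or beside the Myh2 start came from the female day 6 and day 8 lists only, whose peaks cover the most of the genome.

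For Myh1 the window cover was 2.39% in the male vehicle list and 0%, 2.91% and 0% on days 4, 6 and 8. The female vehicle list had 1.45%, and the female prednisone lists 7.14%, 9.93% and 13.8%. A region of 2.67 kb inside the gene (chr11:67204146-67206816) had peaks in 5 lists, namely male vehicle, male day 6 and the 3 female prednisone lists. The Myh1 starts lay in 0 peaks, and the nearest peak of any list was 915 bp downstream at female day 4.

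The genes share sequence to different degrees. Of all 31-base words in the Myh7 body, 13.4% occur more than once in the genome, and in the Myh1, Myh2 and Myh8 bodies 10.2%, 10.3% and 10.2%. The shares were 8.01% in Myh4, 6.81% in Myh3, 2.79% in Myh13 and 0.928% in Myh7b. How the authors treated reads with several placements is not given in the sources used here. The 2 most marked intervals, Myh3–Myh2 and Myh1–Myh4, had 9.54% and 4.68% of such words. The part of repeated sequence in the peak values was not tested.

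The developmental and specialized genes of the cluster had little or no peak cover in most lists. Myh3, the embryonic chain, had peaks in 5 lists, with window cover of 4.42% in the male vehicle list and 0% in the other male lists. Its cover in females was 1.47% with vehicle and 0.779%, 11.7% and 1.47% on days 4, 6 and 8, and the Myh3 starts lay in 0 peaks. Of all protein-coding genes, 46.3% had more cover than Myh3 in the male vehicle list. In the female lists 40.2%, 68.4%, 42.3% and 68.4% did. Myh8, the perinatal chain, had a peak in 3 lists, with cover of 1.21% in the male vehicle, 3.96% in the female vehicle and 1.21% in the female day 8 list. In these lists 69.9%, 18.9% and 69.4% of genes had more cover than Myh8. Myh13 had peaks in the 2 vehicle lists only, at 4.09% in males and 0.92% in females, where 48% and 46.6% of genes had more. The 44.5-kb Myh13 body was free of peaks in the 6 prednisone lists.

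The slow genes lie outside the cluster and each carries a microRNA gene. Myh7 (minus strand, chr14:54970684-54994626) hosts Mir208b, and Myh7b (plus strand, chr2:155611243-155634307) hosts Mir499. The mature sequences from RefSeq are shown because a peak over a host gene can be a peak over its microRNA, with the seed (bases 2 to 8) in capitals. The seeds of the 2 microRNAs share their leading 6 of 7 bases.
mmu-miR-499-5p: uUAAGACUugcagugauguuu
mmu-miR-208b-3p: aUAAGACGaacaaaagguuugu

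Myh7, the slow MyHC-beta gene, had peaks in 2 lists. Its window was covered to 2.95% in the male vehicle list and 9.28% in the female day 6 list, and to 0% in the other 6 lists. The Myh7 starts lay in 0 peaks, and the nearest peak of any list was 523 bp downstream at female day 6 (28 tags). The Mir208b hairpin lay in a female day 6 peak, chr14:54975654-54976154, of 17 tags. In that list 9 of the 14 markers of other cells had a start in a peak, as many as in the female day 8 list, where the Myh7 window had 0% cover. The median window cover of these 14 markers was 19.9% at female day 6 and 10.5% at female day 8. The part of other cells in the Myh7 peaks was not tested. Mhrt, a noncoding RNA gene that overlaps the 3′ end of Myh7 on the other strand, had its start in a peak in the female day 6 list only.

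Myh7b had peaks in 5 lists. Its window cover was 8.24% in the male vehicle list, 1.52% at day 4 and 0% at days 6 and 8. In females it was 0% with vehicle and 1.52%, 28.5% and 8.46% on days 4, 6 and 8. The only peak of the 8 genes outside the Myh3–Myh2 interval in the male day 4 list was chr2:155622483-155622983, which holds the Mir499 hairpin. It rested on 13 tags, with a fold over input of 60.1. A female day 6 peak of 69 tags (chr2:155621971-155623651) covered the same hairpin. The Myh7b start lay in a peak in the female day 6 list only, where 62.8% of all protein-coding genes had a start in a peak.

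**Figure D4:**
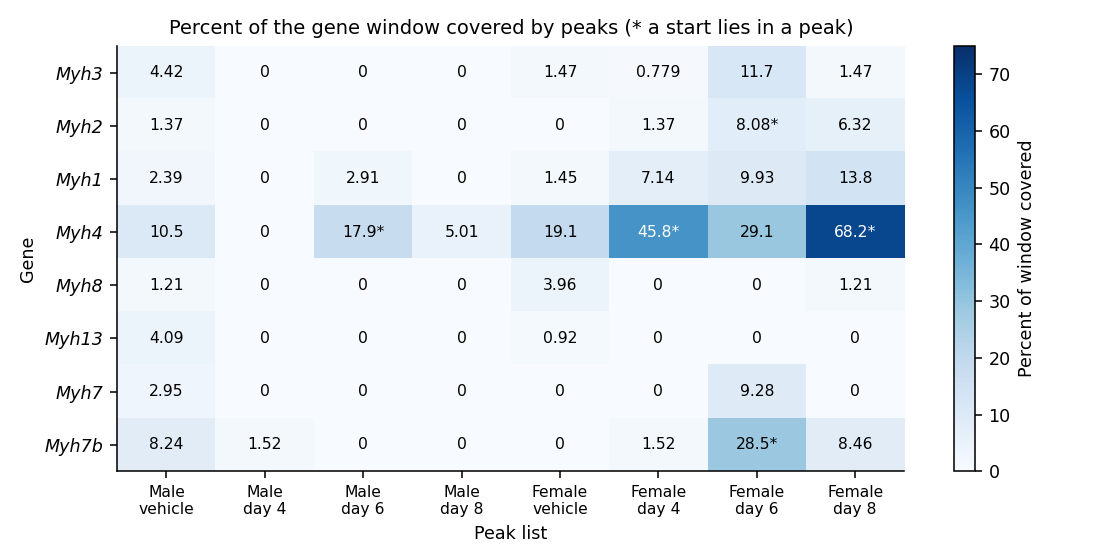
Cells give the percent of each gene's window (body and 10 kb around any start) that lies in peaks, with genes in rows, peak lists in columns and darker blue for more cover; an asterisk marks a start inside a peak. The Myh4 row holds the darkest cells, 45.8% and 68.2% in the female day 4 and day 8 lists, and the Myh8 and Myh13 rows stay at or below 4.09%.

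The number of the 8 genes with a peak differed most between the male lists. In the male vehicle list 8 of 8 had a peak, beside 75.5% of all protein-coding genes. At day 4 in males it was 1 of 8 (Myh7b), beside 46.4% of genes. The male day 6 list had 2 of 8 (Myh1 and Myh4), beside 50.9%, and the male day 8 list 1 of 8 (Myh4), beside 49.3%. In the 3 male prednisone lists the share of the myosin genes was thus below that of all genes, and in the vehicle list above it.

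The female lists ranged from 5 to 6 of 8 in this count. There were 5 of 8 genes with a peak in the vehicle list, beside 54.8% of all genes, and 5 of 8 at day 4, beside 71.6%. At day 6 and day 8 it was 6 of 8, beside 78.7% and 73.6%. The share of the myosin genes was above that of all genes in the female vehicle and day 8 lists and below it in the day 4 and day 6 lists. With every list reduced to its 17482 peaks of highest findPeaks score, the counts were 3, 1, 0 and 1 in the male lists and 3, 2, 3 and 1 in the female lists. In these lists of equal length 39.5% (female vehicle) to 46.9% (male day 8) of all genes had a peak. Picking by this score left 1 peak in the Myh3–Myh2 interval at female day 6 and 1 at female day 8, against 9 and 6 as deposited. The part of list length in the contrast between the sexes was not tested.

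**Figure D5:**
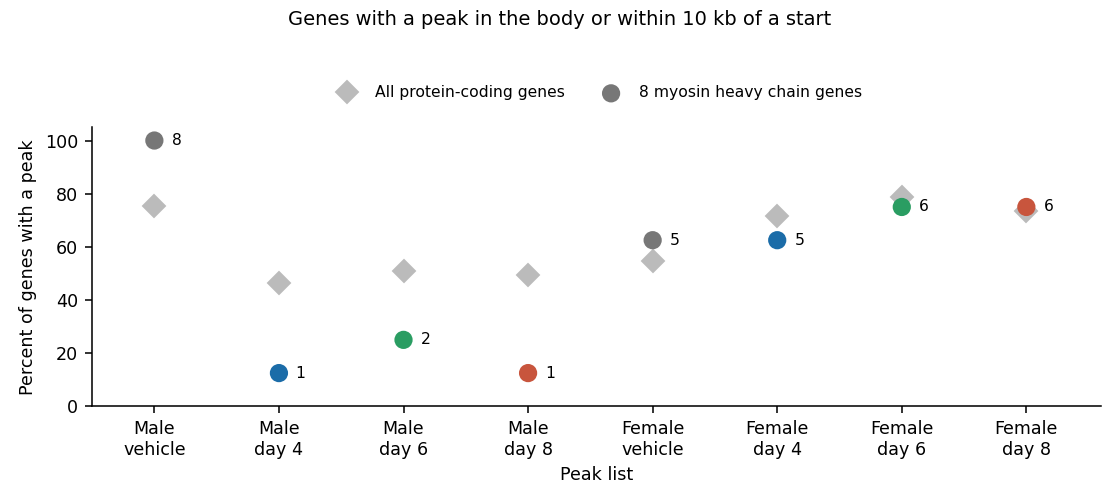
Colored circles give the percent of the 8 myosin heavy chain genes with a peak in each list, with their number beside them, and gray diamonds the percent of all protein-coding genes. In the 3 male prednisone lists the circles (12.5%, 25% and 12.5%) lie below the diamonds, and in the female lists the 2 are close.

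A start inside a peak was rarer at these genes than a peak nearby. In males the number with a start in a peak was 0 in every list but that of day 6, which had 1 (Myh4). Of all protein-coding genes, 42.0%, 21.9%, 21.5% and 27% had one in the vehicle, day 4, day 6 and day 8 lists. In females it was 0 with vehicle, 1 at day 4 (Myh4), 2 at day 6 (Myh2 and Myh7b) and 1 at day 8 (Myh4), beside 17.0%, 46.7%, 62.8% and 56.5% of all genes. Myh4 accounted for 3 of these 5 cases.

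Peaks that appear at day 4 without a vehicle peak of the same sex are the study's prednisone-responsive enhancers. In males 2 of the 6 day 4 peaks at these genes had no vehicle overlap (33.3%), beside 45.4% of all male day 4 peaks. They were the Mir499 peak in Myh7b and a peak of 10 tags between Myh3 and Myh2 (chr11:67138430-67138930), which was present again at days 6 and 8. In females 14 of 20 had none (70%), beside 81.9% of all female day 4 peaks. Of these 14, 6 lay in the Myh4 body, 3 in Myh1, and 1 each in Myh2, Myh7b, the Myh3 flank and the Myh3–Myh2 and Myh1–Myh4 intervals. Day 6 peaks overlapped 8 of the 14, day 8 peaks 9, and 7 were found on both days, beside 50.3%, 43.6% and 37.7% of all 55291 such peaks of that list.

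The tallest female day 4 peaks at these genes were not among the new ones. The highest normalized tag count of a new peak was 25.9, whereas the peak over linc-Myh with 302 and the peak over the Myh4 start with 148 both overlapped vehicle peaks. At later days 8 of 15 male day 6 peaks (53.3%) and 3 of 12 male day 8 peaks (25%) had no vehicle overlap, beside 63.7% and 46.9% of all peaks. In females these were 37 of 47 at day 6 (78.7%) and 22 of 27 at day 8 (81.5%), beside 89.5% and 84.2%. In all 6 prednisone lists this share was smaller at the myosin genes and the intervals between them than in the whole list. This rested largely on the Myh3–Myh2 interval. Outside that interval the share was larger than in the whole list in the male day 4, male day 6, female day 4 and female day 8 lists. It was still smaller in the male day 8 and female day 6 lists. In gene bodies alone, 11 of 12 female day 4 peaks and 1 of 1 male day 4 peak had no vehicle overlap. Both of these shares were larger than in the whole day 4 list.

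Vehicle peaks were also followed forward. Of 33 male vehicle peaks at these genes, day 4 peaks overlapped 2, day 6 peaks 10 and day 8 peaks 8, 2 were found on all 3 days and 22 on none of them. Of all 87600 male vehicle peaks, 10.3%, 13.1% and 12.1% were overlapped on these days, 5.49% on all 3 and 80.3% on none. Of 22 female vehicle peaks, 11, 14 and 14 were overlapped at days 4, 6 and 8, 10 on all 3 days and 7 on none. Over all 38861 female vehicle peaks these shares were 36.6%, 39.6%, 41.0%, 32.0% and 53.9%. Loss of vehicle peaks was thus found over the whole genome. The share found on no day was smaller in both sexes at the myosin genes and the intervals between them. In males this rested on the Myh3–Myh2 interval, which held 10 of the 33 peaks, most of them found again. Outside that interval the male share found on no day was above that of all male vehicle peaks, and the female share was still smaller. Between sexes, 44 of the 71 merged regions came from female lists only and 12 from male lists only, beside 57.1% and 24.0% of the 250070 regions of the genome.

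Other fiber-type genes gave a scale for these values. The fast-fiber genes Myl1 and Mylpf (light chains), Mybpc2 (fast myosin binding protein C) and Mylk2 (the skeletal myosin light chain kinase) all had a peak in 7 lists, and 3 of 4 in the male day 4 list, where Myl1 had none. They did not move as 1 group. Window cover of Myl1 was 4.85%, 0%, 39.2% and 8.61% in the male lists and 25.8%, 44.9%, 12.4% and 42.1% in the female lists, with the value of female day 6 below those of days 4 and 8. The other 3 were highest at female day 6, with 42%, 65.4% and 53% at days 4, 6 and 8 for Mylpf, 33.9%, 79.5% and 52.4% for Mybpc2 and 71.9%, 97.2% and 96.9% for Mylk2. Their cover in the male day 4 list was 9.96%, 13.6% and 30.9%. Of the 6 slow or embryonic light chain and binding protein genes, 6, 3, 3 and 2 had a peak in the male lists and 4, 6, 6 and 5 in the female lists. These 6 genes also differed. The ventricular and slow light chain Myl2 had window cover of 3.8% in the male vehicle list, 1.63% at female day 4 and 26.8% at female day 6, and 0% in the other 5 lists. Myl4 and Myl6b had peaks in all 8 lists, at 2.67% to 26.8% and 12.2% to 94.3%. Myl3, Mybpc1 and Mybph had peaks in 5, 6 and 5 lists, with up to 30%, 14.3% and 68.2%. Of 17 regulators of fiber type, between 14 (male day 4) and 17 had a peak.

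Among the other myosin heavy chain genes, the nonmuscle gene Myh9 had a peak in 8 lists, with cover from 5.78% to 87.2%. Myh6, the cardiac alpha chain that lies next to Myh7, had window cover of 1.87% in the male vehicle list and 6.94% in the female day 6 list, and 0% in the other 6. Its window reaches into the Myh7 body and so counts some of the same peaks in the female day 6 list. The Myh6 body alone was covered to 2.59% in the male vehicle list and 1.92% in the female day 6 list.

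The genes whose window cover over the 8 lists lay closest to that of Myh4 were C2cd2, Ybx3 and Fbxo32, at Euclidean distances of 18.4, 20 and 20.7 percentage points. Fbxo32 encodes the muscle ubiquitin ligase atrogin-1. Its cover was 16.3%, 3.03%, 14.6% and 7.48% in the male lists and 8.31%, 44.8%, 38.2% and 55.4% in the female lists. For Myh7 the closest were Spata31d1d, Gm7579 and Orm3, at 0.476, 0.521 and 0.565 percentage points, which like Myh7 had peaks in the male vehicle and female day 6 lists only.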

How the data were processed

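H3K27ac ChIP-Seq covered 8 groups of isolated quadriceps myofibers. Per the study's methods, Bowtie2 placed the reads on mm10, and peaks came from HOMER findPeaks in histone style against the input, with a minimum fold of 2. The submitters' processing notes list Bowtie2 2.2.6 and TopHat2 2.1.0. The sources used here do not give how a group's 2 libraries were joined. Each deposited list gives a normalized tag count, a signal scaled by the authors to 10 M tags (megatags). The deposited findPeaks score and the deposited ratio to input (fold) were used to describe or filter peaks within a list. The H3K27ac tag count deposited for the female day 6 and male day 4 lists is as counted. In the other lists tags were recovered from the normalized values and depth, which the step between low values gave (100% whole within 0.01).

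Peaks were set against GRCm38.p6 RefSeq genes (21774 protein-coding), and regions were overlapping peaks of the 8 lists merged. Promoters ran from 250 bases before to 50 after a start. MEF2 and CArG matches used consensus letters, and matches on both strands were counted. The genes and lists were chosen with earlier results of these data known. All 8 genes are named, with the peak nearest each start, the regions in the most lists and the 3 genes closest in cover to Myh4 and to Myh7. Overlap steps were tested on simulated peaks. Intervals and tests were not computed, since each group has 1 list. Alternatives were the window, the fold over input, lists of equal length, the overlap and the merging distance. Python 3.11.15, numpy 2.4.6, pandas 2.3.3, numba 0.67.0 and matplotlib 3.10.9 were used.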

Additional observations from a re-analysis of the deposited data

Results flagged for a closer look

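From vehicle to day 4, peak cover moved in opposite directions in males and females at 3 of the places described. The difference between the sexes was not tested, since each group has 1 list. In the Myh3–Myh2 interval cover fell by 22.2 percentage points in males and rose by 18.4 in females. In the Myh1–Myh4 interval it fell by 8.55 percentage points in males and rose by 33.9 in females. Over the Myh4 window it fell by 10.5 percentage points in males and rose by 26.7 in females. Cover of the whole genome moved the same way, from 2.44% to 0.466% in males and from 0.985% to 2.61% in females. Relative to it, the Myh3–Myh2 interval went from 21.3-fold to 15.1-fold and the Myh1–Myh4 interval from 34.2-fold to 25.9-fold in females. In males these intervals went from 11.7-fold to 13.3-fold and from 3.5-fold to 0. H3K27ac depth went from 31.6 to 7.52 M (megatags) in males and from 27.5 to 49 M in females.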

How the results depend on the processing

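No paired analysis was possible because each group has 1 peak list and no values per library were used. Of 43 alternative counts, 30 stayed within 1.5 times of the count as deposited and 13 moved, 10 of them downward. With a window of 20 kb the genes with a peak rose to 2, 4 and 3 in the male day 4, day 6 and day 8 lists, beside 52.3%, 58% and 55.4% of all protein-coding genes. With every list reduced to its 17482 peaks of highest findPeaks score, they were 3 in the male vehicle, 0 in the male day 6, 3 in the female vehicle, 2 in the female day 4, 3 in the female day 6 and 1 in the female day 8 list. All protein-coding genes with a peak at equal length were 46.5%, 46.4%, 41.4% and 46.9% in the male lists and 39.5%, 45.2%, 46.3% and 46.3% in the female lists, so the 3 of 8 genes of the male vehicle list were no longer above the share of all genes. At equal length 3 female day 4 peaks had no vehicle overlap, and 0 regions held peaks of all lists, although the Myh3–Myh2 interval had at least 1 peak in each list. The findPeaks score that picked these peaks did not follow tag count, so the part of list length in these counts was not tested. With a fold over input of at least 4, 1 region held peaks of all lists. Counting gene bodies only, 1 male day 4 peak had no vehicle overlap. Depth limits the male day 4 list most: its 6 peaks at these genes held 10 to 27 tags each, so a gene without a peak there is one with no peak detectable at this depth.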
